A study of Mus musculus with 2 samples.

Results

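PPARG and lipid handling genes were described as a set of 10 genes, Pparg, Fabp1, Fabp4, Fabp5, Lpl, Cd36, Msr1, Abcg1, Abca1 and Plin2, out of 32285 genes counted in the mouse lung. They were chosen by their symbols, and each matched 1 gene in both libraries, so all 10 are accounted for. The study deleted the transcription factor Cebpa from alveolar type 2 (AT2) epithelial cells of adult mice and profiled the lung by droplet single-cell RNA sequencing, with 1 library per genotype. The control library came from Cebpa fl/fl mice, which carry the floxed allele without Cre, and was titled Cebpa FF; it is called the control library here. The ΔSftpc library came from Cebpa ΔSftpc mice, titled Cebpa KO, which carry the same floxed allele and an inducible CreERT2 driven from the Sftpc locus. In the deleted mice the recombinase acts in cells that express Sftpc, mainly AT2 cells, so macrophages, capillaries and fibroblasts are not its target. Mice were used at 3 months of age, on a mixed background and with age-matched controls. Tamoxifen was given as 5 daily injections at 75 mg/kg, repeated weekly in long experiments, and lungs of both genotypes were taken 26 weeks after the first injection. Lungs of 3 mice per genotype were processed, but the barcodes do not name the mouse, so each genotype is 1 pooled sample. The difference between genotypes therefore cannot be told apart from the difference between libraries.

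PPARG is a nuclear receptor that binds DNA together with a retinoid X receptor and is activated by fatty acids and their derivatives. It is best known as the main regulator of fat cells, and in the lung it is needed for alveolar macrophages to mature and to clear surfactant lipid. Its known targets include the fatty acid binding proteins, which carry fatty acids inside the cell, and Cd36, which takes up fatty acids and oxidised lipoproteins at the surface. Lipoprotein lipase, encoded by Lpl, splits the triglycerides of lipoproteins at the surface of capillaries. Abca1 and Abcg1 export cholesterol and are targets of the liver X receptors. Plin2 coats lipid droplets, and Msr1 is a scavenger receptor of macrophages.

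The control library held 11721 barcodes with 69200420 unique molecular identifiers (UMIs, each a counted mRNA molecule), and the ΔSftpc library 13373 barcodes with 64697396 UMIs. After filters on genes and mitochondrial reads, 11487 cells with a median of 4835 UMIs and 13238 cells with a median of 2607 UMIs were kept. A total of 45 barcodes occurred in both libraries. Cells were placed in types by counts of marker genes, none of which is among the 10 genes. Levels are given as counts per 1000000 UMIs of the summed cells (CPM), with exact 95% Poisson intervals in brackets, and intervals here cover counting error only. With 1 library per genotype no p-value is given, and a gene is called different only by size, at 2-fold or more. The targeted gene Cebpa stood at 153 CPM (146 to 162) in AT2 cells of the control library and at 121 CPM (105 to 139) in the ΔSftpc library, lower in the latter by less than 2-fold. How many of these AT2 cells kept an intact allele was not tested. The AT2 gate asks for AT2 genes such as Sftpc at 5% of UMIs. The paper reports transitional AT2 cells with lower Sftpc after the deletion. AT2 cells that lost these genes could fail the gate, and how many did was not tested. AT2 values here describe only cells that pass it.

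Blood-borne and resident leukocytes made up 104 cells (0.905%) of the control library and 1941 cells (14.7%) of the ΔSftpc library. The labels speak of sorted cells and the methods of whole-lung suspensions, so whether a sort set these shares was not settled. Alveolar macrophages numbered 4 in the control library, with a median of 679.5 UMIs, and 638 in the ΔSftpc library, with a median of 2291 UMIs. The 11 alveolar macrophage markers summed to 1.79% of UMIs in the 638 cells, with none at 0, and to 1.4% in the 4 cells, with 3 of the 11 at 0. The pan-leukocyte gene Ptprc and the alveolar macrophage lectin Siglecf had no UMI in those 4 cells, whose 2792 UMIs together place the 3-count limit at 1074 CPM. Most of what follows on alveolar macrophages thus describes the ΔSftpc library alone. Below, where 2 values stand side by side without a name, the control library comes first. AT2 cells numbered 458 and 270, with medians of 21077.5 and 1541.5 UMIs. Capillary endothelial cells numbered 5891 and 4632, with medians of 5085 and 5170.5 UMIs. Fibroblasts numbered 1235 and 1131, with medians of 7145 and 1804 UMIs. Depth therefore differed most in AT2 cells and fibroblasts.

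RNA of leukocytes was also counted in cells of other types. Chil3, a chitinase-like protein made by alveolar macrophages, had 649 UMIs in fibroblasts of the ΔSftpc library against 2 in the control library, 178 against 3 in AT2 cells, and 185 against 0 in B cells. The alveolar macrophage markers summed to 0.0316% of UMIs in fibroblasts, 0.0193% in AT2 cells and 0.0153% in capillary cells of the ΔSftpc library, with 0, 1 and 0 of the 11 at 0. In the control library the sums were 0.0074%, 0.0018% and 0.0006%, with 3, 4 and 1 at 0. These levels move with the genotype and with each comparison of the libraries. The share of UMIs that alveolar macrophage RNA would carry at its ratio to Chil3 is given beside the library differences that it touches most. For Fabp1 such shares exceeded the counts, so they can be too high, and with other macrophage genes in place of Chil3 they can be larger.

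Across the 18 gates, the 10 genes had distinct main sources. Alveolar macrophages of the ΔSftpc library were the leading place of Fabp1, Lpl, Abcg1 and Plin2 in that library. Capillaries led in Cd36, dendritic cells and AT2 cells in Fabp5, lymphatic endothelium in Abca1, and classical monocytes in Msr1. Fabp4 was led by nonclassical monocytes, and Pparg by nonclassical monocytes and alveolar macrophages together. Against all other gated cells of the same library, 8 of the 10 genes were at least 2-fold higher in the 638 alveolar macrophages, where 12% of all genes tested were. Since several of the genes are textbook genes of this cell type, the count describes the set and was not tested.

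**Figure D1:**
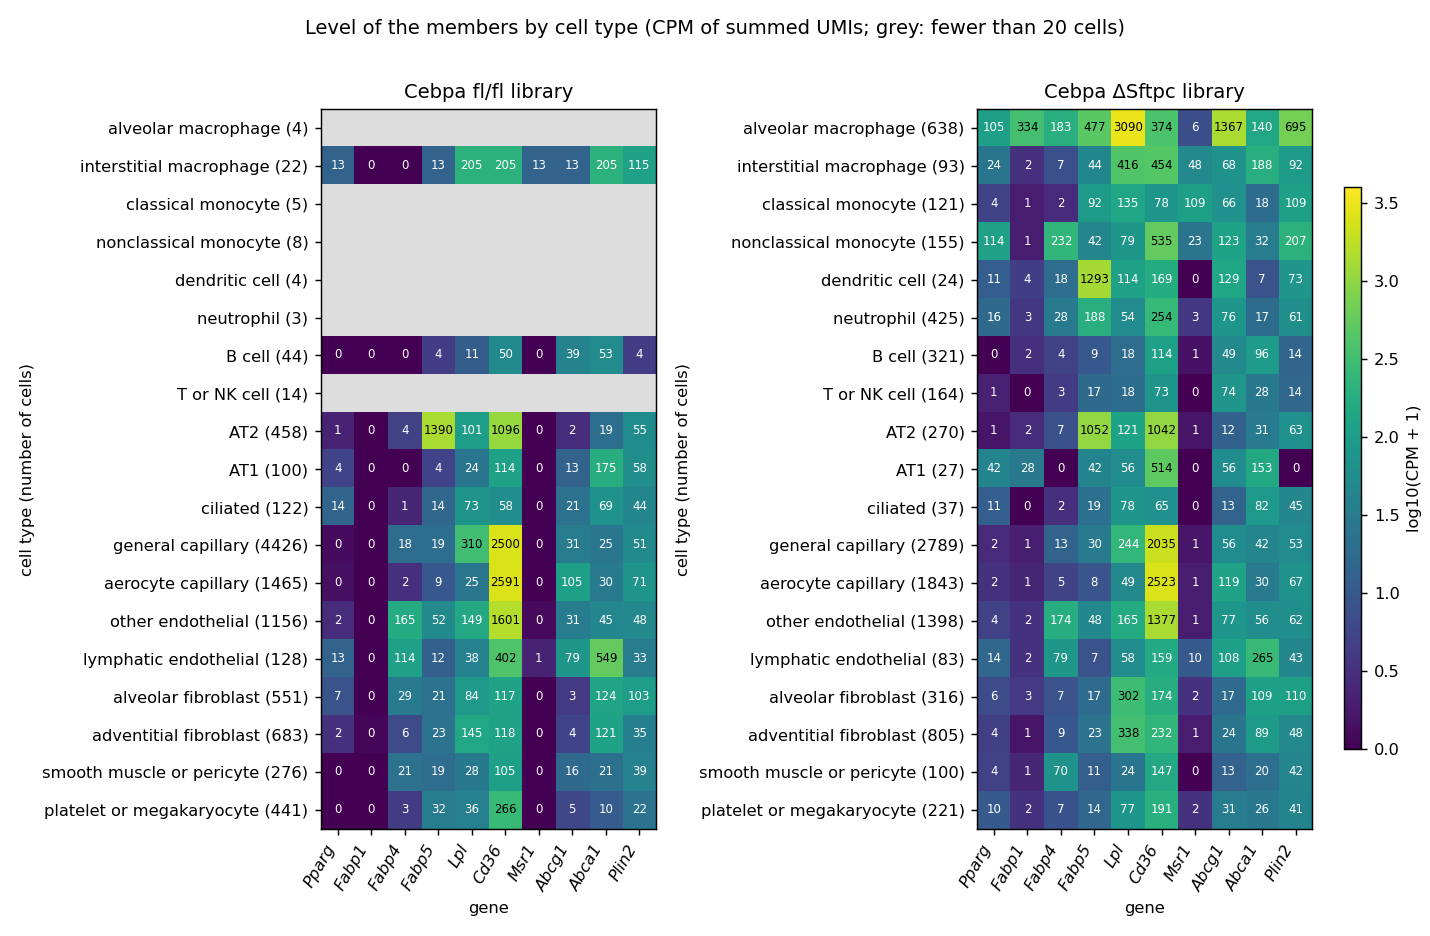
Level of each of the 10 genes (columns) by cell type (lines, with the number of cells) in the control and the ΔSftpc library; the colour is log10(CPM + 1), the printed value is CPM, and grey marks types of fewer than 20 cells. Lpl reached 3089.8 CPM in alveolar macrophages of the ΔSftpc library, and Cd36 lay between 2035 and 2591 CPM in both capillary types of both libraries.

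Pparg, the receptor itself (ENSMUSG00000000440, GRCm38 chr6:115360951-115490399, plus strand, overlapping Gm44079 on the other strand), was counted at 105 CPM (96.1 to 115) in the 638 alveolar macrophages. Nonclassical monocytes of the same library stood at 114 CPM (95.3 to 136), from 125 UMIs in 155 cells. The ratio of alveolar macrophages to nonclassical monocytes was -0.12 on the log2 scale (-0.41 to 0.17), so neither was shown to be higher in the summed cells. The 167 alveolar macrophages of 10000 UMIs or more held 3749301 of the 4777924 UMIs summed and stood at 119 CPM. Shallower groups lay between 19.1 CPM, from 1 UMI, and 66.4 CPM. The 8 nonclassical monocytes of the control library gave 117 CPM (42.9 to 255), from 6 UMIs. Lower levels were counted in interstitial macrophages (24.0 CPM), neutrophils (16.4 CPM), classical monocytes (4.47 CPM) and B cells (a UMI in 0 of 321 cells, which allows a share of cells with a UMI of up to 0.935%, from 3 counts) of the ΔSftpc library. Outside leukocytes the receptor was scarce, and the 3 UMIs in 27 AT1 cells of the ΔSftpc library are too few for a level. Ciliated cells had 14.0 CPM from 29 UMIs in the control library and 10.8 CPM from 5 UMIs in the ΔSftpc library. Lymphatic endothelium had 13.1 CPM in the control library and 14.4 CPM in the ΔSftpc library, from 10 and 6 UMIs. Alveolar fibroblasts had 7.21 CPM from 23 UMIs and 5.95 CPM from 8 UMIs, in the same order, a log2 ratio of -0.28 (-1.65 to 0.93). In the control library alveolar fibroblasts lay above adventitial fibroblasts by 1.71 on the log2 scale, and in the ΔSftpc library the same ratio was 0.67 with an interval of -0.81 to 2.05. AT2 cells held 11 UMIs in the control library and 1 UMI in the ΔSftpc library, too few for a comparison. Capillary cells held 10 UMIs, or 0.303 CPM, against 53 UMIs, or 1.99 CPM, a log2 ratio of 2.71 (1.72 to 3.85). If the Chil3 in general capillary cells came with alveolar macrophage RNA in the ratio seen in those macrophages, it would carry 46.3% of their Pparg UMIs, and 46.1% in aerocytes, the second capillary type. Whether that RNA gives the difference was not tested.

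Fabp1 (ENSMUSG00000054422, GRCm38 chr6:71199827-71205023, plus strand) encodes the fatty acid binding protein of liver. Its bases before the gene start are shown because they hold, next to the start, a direct repeat with 1 base between its parts, the form to which PPARG and its retinoid X receptor partner bind. The window is chr6:71199629-71199826 of GRCm38.p6 from RefSeq, plus strand, and the capitals mark the match.

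Fabp1 upstream window: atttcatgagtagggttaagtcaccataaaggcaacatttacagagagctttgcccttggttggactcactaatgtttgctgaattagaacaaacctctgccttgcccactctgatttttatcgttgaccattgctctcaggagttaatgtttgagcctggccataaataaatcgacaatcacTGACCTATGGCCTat

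The capitals read AGGNCANAGGNCA on the minus strand, where N is any base, at 71199812 to 71199824. Both strands were searched, and 125 of 32851 promoter windows in the table (0.381%) hold this motif. RefSeq windows were found for Pparg, Fabp1, Cd36, Abca1 and Plin2, 7 windows in all, and 1 of the 7 holds it. The single repeat AGGTCA, which can lie within the longer motif, is in 5 of the 7 windows and in 16.3% of all windows. The form of the motif was chosen with this window in view, and a match is a description of letters, not a bound site.

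Fabp1 was counted at 334 CPM (318 to 351) in alveolar macrophages of the ΔSftpc library, from 1596 UMIs. Each other leukocyte type of that library had 0 to 5 UMIs, and nonclassical monocytes had 1. Against all other gated cells the log2 ratio was 7.89, the highest of the 10 genes. The 4 alveolar macrophages of the control library had 5 Fabp1 UMIs among 2792, or 1791 CPM, a log2 ratio of -2.42 (-3.65 to -0.80) for Cebpa ΔSftpc over Cebpa fl/fl. Those 5 UMIs came from cells in which Ptprc was not seen, and 4 cells cannot stand for a population. In capillary cells Fabp1 had 0 UMIs in the control library and 31 in the ΔSftpc library, at least 12.8-fold higher against a floor of 3 counts. Alveolar macrophage RNA at its ratio to Chil3 would bring 251% of the counted Fabp1 to general capillary cells and 317% to fibroblasts, that is, more than was counted. Since these shares exceed the counts, shares at the Chil3 ratio can be too high, here and for the other genes. They can also be too low. The scavenger receptor Marco had 28 UMIs in fibroblasts and 1803 in alveolar macrophages of the ΔSftpc library. The lipid droplet gene Cidec had 21 and 1072. Fibroblast shares at the ratio to either gene would be larger than at the Chil3 ratio. By how much the shares err in either direction was not tested. Nonclassical monocytes also had Chil3, at 391 CPM.

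Fabp4 (ENSMUSG00000062515, chr3:10204088-10208576, minus strand) encodes the fatty acid binding protein of fat cells and macrophages. Alveolar macrophages of the ΔSftpc library had 183 CPM (171 to 195), less than the nonclassical monocytes at 232 CPM, a log2 ratio of -0.34 (-0.55 to -0.14). The 8 nonclassical monocytes of the control library had 18 UMIs, or 351 CPM. Endothelial cells placed in neither capillary type stood at 165 CPM (153 to 177) in the control library. In the ΔSftpc library they stood at 174 CPM (160 to 189), and these intervals overlap. No marker of another vessel was asked of them. They had medians of 3189.5 and 1363 UMIs and Cd36 at 1601 and 1377 CPM, so capillary cells may be among them. General capillary cells had 18.2 and 13 CPM and aerocytes 2.06 and 4.53 CPM, the latter from 21 and 46 UMIs. Alveolar macrophage RNA at its ratio to Chil3 would bring 41.8% of those 46 UMIs. The endothelial cells of neither type exceeded general capillary cells by 3.18 on the log2 scale in the control library and by 3.74 in the ΔSftpc library. General capillary cells exceeded aerocytes by 3.14 and 1.52. Alveolar fibroblasts had 29.5 CPM from 94 UMIs in the control library and 7.44 CPM from 10 UMIs in the ΔSftpc library, a log2 ratio of -1.99 (-3.09 to -1.04). Adventitial fibroblasts had 5.78 and 8.65 CPM, a ratio of 0.58 (-0.18 to 1.33). The Fabp4 level of AT2 cells was 3.99 CPM and 6.73 CPM, a ratio of 0.76 (-0.36 to 1.76).

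Fabp5 (ENSMUSG00000027533, chr3:10012548-10016607, plus strand) encodes the fatty acid binding protein of skin and is also abundant in AT2 cells. Dendritic cells had the highest level, 2078 CPM in 4 cells of the control library and 1293 CPM in 24 cells of the ΔSftpc library. AT2 cells followed with 1389.7 CPM from 12899 UMIs in the control library and 1052 CPM from 1719 UMIs in the ΔSftpc library. The log2 ratio in AT2 cells was -0.40 (-0.48 to -0.33), below 2-fold. Over the alternatives of processing it ranged from -0.90 to -0.27. Type 1 (AT1) cells of the control library had only 2 UMIs, or 4.31 CPM. Thinned to 1000 UMIs per cell, Fabp5 was seen in 55.6% of AT2 cells of the control library and 40.1% of the ΔSftpc library. Alveolar macrophages of the ΔSftpc library had 477 CPM (458 to 497), neutrophils 188 CPM and nonclassical monocytes 42.1 CPM. General capillary cells had 19.3 and 29.7 CPM, a log2 ratio of 0.63 (0.44 to 0.82), and aerocytes 8.64 and 7.88 CPM, a ratio of -0.13 (-0.59 to 0.32). Alveolar macrophage RNA would bring 12.4% and 62.9% of their UMIs in the ΔSftpc library.

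Lpl (ENSMUSG00000015568, chr8:68880491-68907448, plus strand), the enzyme that frees fatty acids from lipoproteins, was highest in alveolar macrophages. Its 14763 UMIs in the 638 cells of the ΔSftpc library gave 3089.8 CPM (3040 to 3140), 39.2-fold the level of nonclassical monocytes (78.7 CPM). Interstitial macrophages had 416 CPM and classical monocytes 135 CPM. Of the 579 alveolar macrophages with 1000 UMIs or more, 85.5% (82.4 to 88.3) held a Lpl UMI after thinning, against 2.54% of B cells, which are not known to make it. Without thinning the share was 93.9% of 638. The median depths behind these shares were 2291 UMIs in alveolar macrophages and 5506 in B cells.

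In capillaries Lpl was mostly a gene of general capillary cells. It stood at 309.8 CPM in general capillary cells and 25.1 CPM in aerocytes of the control library, a 12.3-fold difference, and at 244 and 48.6 CPM in the ΔSftpc library, a 5.02-fold difference. General capillary cells were lower in the ΔSftpc library by a log2 ratio of -0.35 (-0.40 to -0.29), and aerocytes were higher by 0.95 (0.73 to 1.17). Alveolar macrophage RNA at its ratio to Chil3 would carry 66.1% of the Lpl UMIs of those aerocytes and 9.8% of those of general capillary cells, and its part in the aerocyte difference was not tested.

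In fibroblasts Lpl differed by 2-fold or more between the libraries. Alveolar fibroblasts had 84.0 CPM (74.3 to 94.7) in the control library and 302 CPM (273 to 333) in the ΔSftpc library, a 3.6-fold difference or 1.85 on the log2 scale (1.62 to 2.07). Adventitial fibroblasts had 145 CPM (135 to 155) and 338 CPM (319 to 358), a 2.33-fold difference or 1.22 (1.09 to 1.35). In neither fibroblast type did the intervals of the libraries overlap. Thinned to 1000 UMIs per cell, 6.72% (4.72 to 9.22) and 20.7% (16.1 to 26) of alveolar fibroblasts held a Lpl UMI, while B cells stood at 2.33% and 2.54%. Their median depths were 5514 and 1840 UMIs, beside 5749.5 and 5506 in B cells. Alveolar macrophage RNA at its ratio to Chil3 would bring 175.7 of the 1582 UMIs in fibroblasts of the ΔSftpc library, 11.1%. With cells that held a UMI of Chil3, Marco or Fabp1 left out, 1232 and 739 fibroblasts remained, with medians of 7139.5 and 1662 UMIs. The log2 ratio was then 1.48, beside 1.41 (1.30 to 1.52) for all fibroblasts. A shallow cell without a UMI of these genes can still hold macrophage RNA, so the part of that RNA in the Lpl difference was not tested. AT2 cells had 101 and 121 CPM, a log2 ratio of 0.25 (0.02 to 0.47), which turned to -0.05 with the level of free RNA subtracted.

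**Figure D2:**
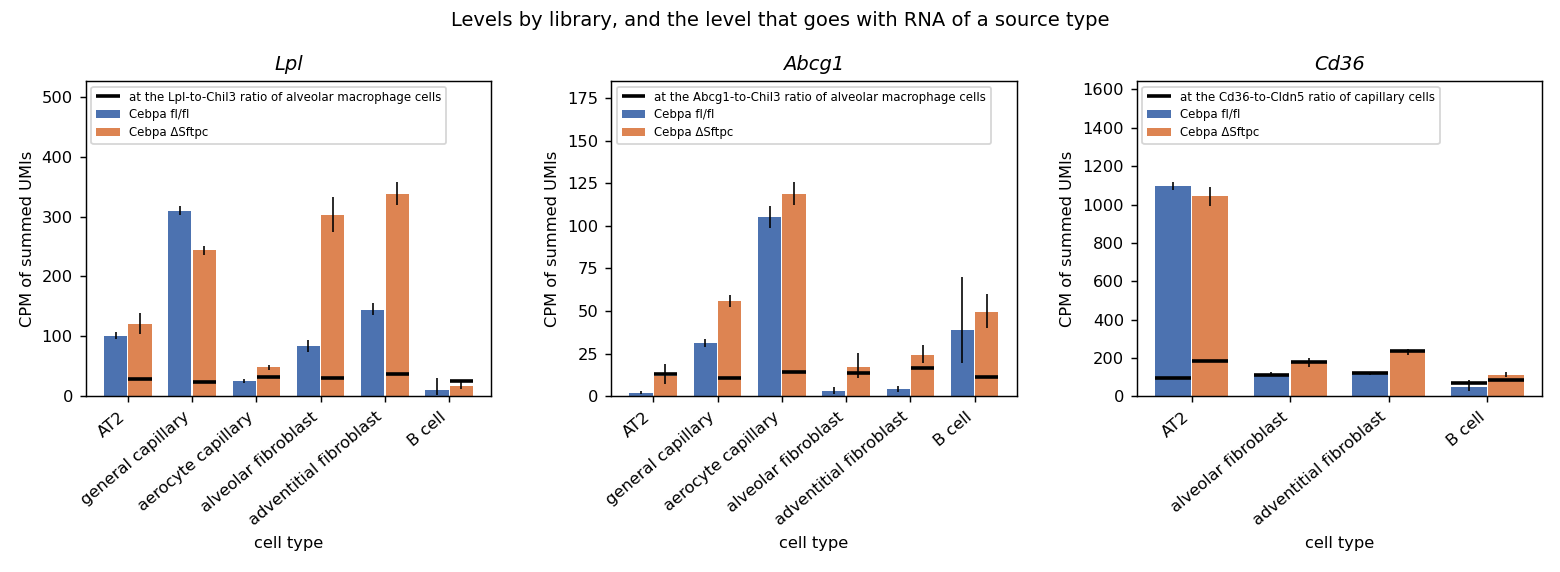
Levels in CPM of Lpl, Abcg1 and Cd36 by cell type and library (bars, from 0), with black lines at the level that would come with RNA of alveolar macrophages at their ratio to Chil3, or of capillary cells at their ratio to Cldn5. The line reaches 107% of the Abcg1 bar of Cebpa ΔSftpc AT2 cells. Over all Cebpa ΔSftpc fibroblasts, which have no bar of their own, the share was 11.1% for Lpl and 103% for Cd36.

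Cd36 (ENSMUSG00000002944, chr5:17781690-17888801, minus strand), the fatty acid translocase, was a gene of capillaries first. General capillary cells had 2499.6 CPM from 57075 UMIs in the control library and 2035 CPM from 33657 UMIs in the ΔSftpc library, a log2 ratio of -0.30 (-0.32 to -0.28). Aerocytes had 2591 and 2523 CPM, a ratio of -0.04 (-0.06 to -0.01). Of general capillary cells thinned to 1000 UMIs, 88.5% held a UMI in the control library and 81.8% in the ΔSftpc library, while 14.3% of B cells of the latter did. The general capillary cells had medians of 4672.5 and 5350 UMIs. AT2 cells had 1096 and 1042 CPM, a log2 ratio of -0.07 (-0.15 to 0.00), so their level was close in both libraries. Capillary RNA at its ratio to the endothelial junction gene Cldn5 would bring 8.56% and 17.9% of the Cd36 in AT2 cells. AT1 cells stood at 114 CPM in the control library and 514 CPM in 27 cells of the ΔSftpc library, with a median of 1962 UMIs. What part of these AT1 levels came with capillary RNA was not tested. In the myeloid cells of the ΔSftpc library Cd36 was highest in nonclassical monocytes, at 535 CPM, followed by interstitial macrophages at 454 CPM and alveolar macrophages at 374 CPM (357 to 392). Up to 43.6% of the alveolar macrophage UMIs would come with capillary RNA at the Cldn5 ratio. Fibroblasts had 117 and 217 CPM, a log2 ratio of 0.89 (0.76 to 1.01), but capillary RNA at that ratio would bring 98.8% and 103% of these counts, so their own Cd36 level could not be told apart from carried RNA.

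Msr1 (ENSMUSG00000025044, chr8:39581685-39642673, minus strand), a class A scavenger receptor, was led by classical monocytes at 109 CPM (90.5 to 130) in the ΔSftpc library and 91.8 CPM from 5 UMIs in the control library. Interstitial macrophages had 48.0 CPM and nonclassical monocytes 22.9 CPM. Alveolar macrophages had 6.28 CPM (4.24 to 8.96), 30 UMIs in 638 cells. Classical monocytes exceeded alveolar macrophages 17.4-fold, a log2 ratio of -4.12 (-4.74 to -3.53) for alveolar macrophages over classical monocytes. The scavenger receptors Marco and Olr1, were counted at 377 and 373 CPM in the same alveolar macrophages. No UMI of Msr1 was seen in AT2 cells, capillary cells or fibroblasts of the control library, while the ΔSftpc library had 1, 20 and 6.

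Abcg1 (ENSMUSG00000024030, chr17:31057675-31117988, plus strand, overlapping Gm25447 on the same strand) exports cholesterol to high-density lipoprotein. Alveolar macrophages of the ΔSftpc library had 1367 CPM (1334 to 1400.3) from 6530 UMIs, and 63.0% of the thinned cells held a UMI against 4.8% of B cells. Nonclassical monocytes had 123 CPM, a log2 difference of 3.48. Aerocytes had 105 CPM in the control library and 119 CPM in the ΔSftpc library, and general capillary cells had 31.1 and 55.9 CPM. Aerocytes thus exceeded general capillary cells 3.38-fold in the first library and 2.13-fold in the second, the reverse of Lpl. General capillary cells were higher in the ΔSftpc library by 0.85 on the log2 scale (0.70 to 0.99), and 18.9% of their UMIs would come with alveolar macrophage RNA at the Chil3 ratio. Abcg1 was low in AT2 cells, with 1.94 CPM and 12.2 CPM, from 18 and 20 UMIs, a 6.31-fold ratio. Alveolar macrophage RNA at the Chil3 ratio would bring 21.3 UMIs where 20 were counted. Fibroblasts had 3.86 CPM from 35 UMIs and 22.2 CPM from 107 UMIs, a log2 ratio of 2.52 (1.96 to 3.12). The same RNA would bring 77.7 of the 107 UMIs, 72.6%, and more at the ratio to Marco or Cidec. Its part in the difference was not tested.

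Abca1 (ENSMUSG00000015243, chr4:53030787-53159895, minus strand), which exports cholesterol to apolipoproteins with little lipid, had another pattern. It was highest in lymphatic endothelium, at 549 CPM (498 to 605) in the control library and 265 CPM (218 to 319) in the ΔSftpc library, a log2 ratio of -1.05 (-1.37 to -0.75). AT1 cells had 175 and 153 CPM, alveolar fibroblasts 124 and 109 CPM, and adventitial fibroblasts 121 and 89.1 CPM. The log2 ratio in alveolar fibroblasts was -0.18 (-0.47 to 0.09) and in adventitial fibroblasts -0.44 (-0.64 to -0.25). AT2 cells had 18.7 and 30.6 CPM, a ratio of 0.71 (0.22 to 1.17), and lay below AT1 cells by a log2 ratio of -3.22 in the control library. General capillary cells had 25.1 and 41.8 CPM, a ratio of 0.74 (0.58 to 0.90), and aerocytes had 29.8 and 30.2 CPM. Alveolar macrophages of the ΔSftpc library had 140 CPM (130 to 151), below interstitial macrophages at 188 CPM by a log2 ratio of -0.42 (-0.74 to -0.08) and above nonclassical monocytes at 32.0 CPM.

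Plin2 (ENSMUSG00000028494, chr4:86648386-86670060, minus strand), the lipid droplet coat protein found in most cells, was highest in alveolar macrophages of the ΔSftpc library, at 695 CPM (671 to 719), followed by nonclassical monocytes at 207 CPM. The 4 alveolar macrophages of the control library had 6 UMIs. In general capillary and AT2 cells its level was close between the libraries. General capillary cells had 51.2 and 52.7 CPM, a log2 ratio of 0.04 (-0.08 to 0.17), and AT2 cells 54.9 and 63.0 CPM, a ratio of 0.20 (-0.12 to 0.51). Alveolar fibroblasts had 103 and 110.1 CPM, and adventitial fibroblasts 35.2 and 47.9 CPM. Alveolar fibroblasts exceeded adventitial fibroblasts by 1.54 on the log2 scale in the control library and by 1.20 in the ΔSftpc library.

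**Figure D3:**
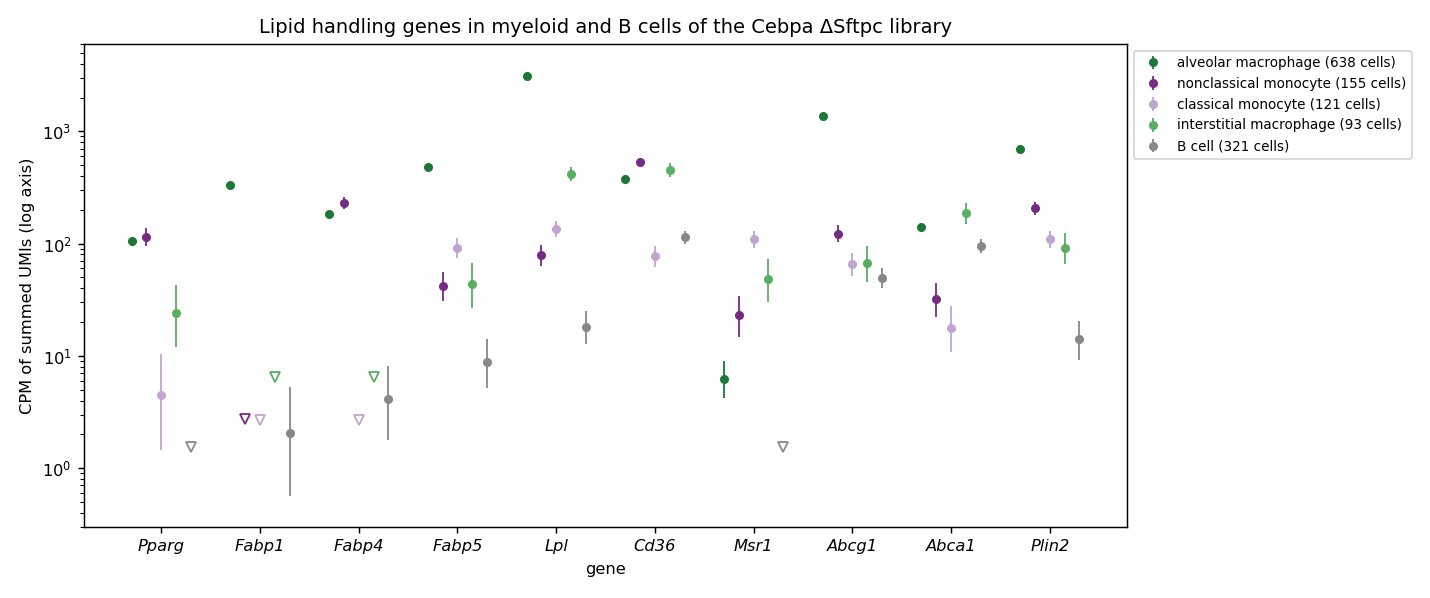
Levels in CPM on a log axis of the 10 genes in alveolar macrophages, nonclassical monocytes, classical monocytes, interstitial macrophages and B cells of the ΔSftpc library. Points carry exact 95% Poisson intervals and open triangles mark the 3-count limit of genes with 3 UMIs or fewer. Pparg, Fabp4 and Cd36 lie close in alveolar macrophages and nonclassical monocytes, while Fabp1 and Lpl separate them.

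Within the 638 alveolar macrophages the genes differed in how they moved with depth. Cells were split at 1000, 3000 and 10000 UMIs into 59, 319, 93 and 167 cells. Pparg had 19.1, 50.5, 66.4 and 119 CPM from the shallowest to the deepest group, the first of these from 1 UMI. Abca1 had 38.2, 88.4, 128 and 151 CPM, and Plin2 had 363, 507, 588 and 739 CPM. Fabp5 stayed between 420.2 and 491 CPM. Cd36 ran the other way, with 1069.7, 615, 498 and 315 CPM, and the endothelial gene Cldn5 ran with it at 840.5, 778, 448 and 151 CPM. Chil3 had 6284, 7816, 8431 and 12352 CPM. The shallow alveolar macrophage barcodes thus held less Chil3 and more Cldn5 per UMI than the deep ones. After thinning to 1000 UMIs, alveolar macrophages held a UMI of a median of 3 of the 10 genes, and 386 of 579 (66.7%) held 3 or more. Nonclassical monocytes held a median of 1, and 18 of 146 (12.3%) held 3 or more. Pparg and Lpl were seen in the same cell in 38 alveolar macrophages (6.56%) and in 2 nonclassical monocytes. Pparg and Fabp4 were seen together in 2 alveolar macrophages and in 4 nonclassical monocytes.

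**Figure D4:**
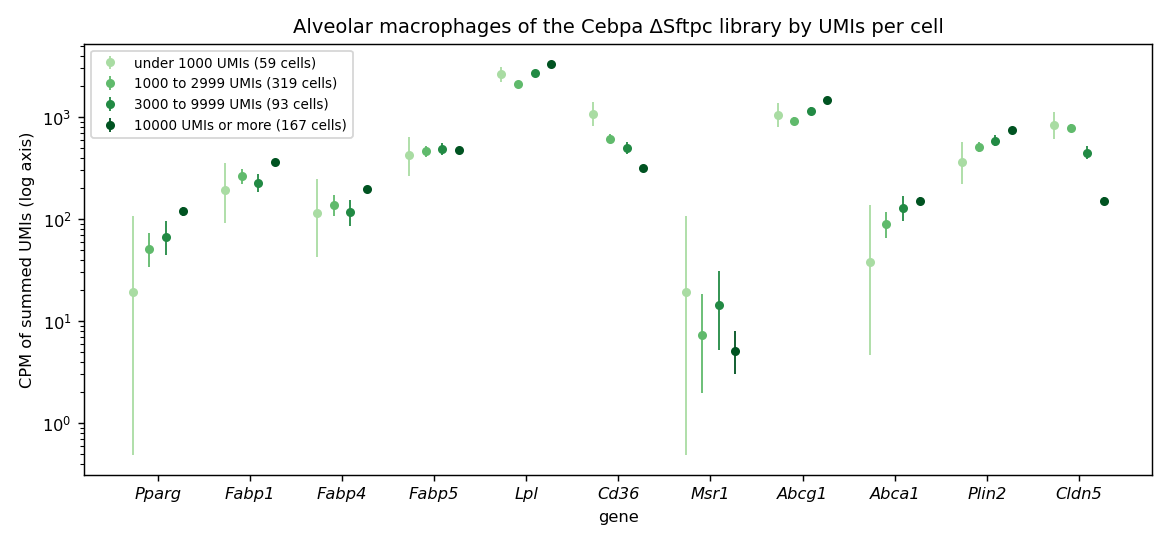
Levels in CPM on a log axis, with exact 95% Poisson intervals, of the 10 genes and of Cldn5 in alveolar macrophages of the ΔSftpc library, split by the UMIs of the cell into groups of 59, 319, 93 and 167 cells. Cd36 goes from 1069.7 to 315 CPM and Cldn5 from 840.5 to 151 CPM with depth, while Fabp5 keeps to 420.2 to 491 CPM.

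Within each cell type, the libraries were then compared gene by gene. In AT2 cells 7 of the 10 genes had the 20 UMIs over both libraries that the comparison needed, and 1 of the 7, Abcg1, was 2-fold or more higher, where 8.42% of 11621 genes were. None was 2-fold or more lower, where 1.18% were. The median log2 ratio of the 7 genes was 0.25, and that of all genes 0.15. In capillary cells all 10 passed, and Pparg, Fabp1 and Msr1 were 2-fold or more higher, where 7.16% of 14704 genes were, and none was lower, where 1.87% were. Their median was 0.46, beside 0.02 for all genes. Fabp1 and Msr1, with 0 control UMIs, reached the 20 UMIs through the ΔSftpc library alone, so their call was set by that filter. Pparg, with 10 control UMIs, passed only with the 53 UMIs of the ΔSftpc library, where it was high. The 3 calls, the count and the median thus carry no weight. The 3 genes have at most 53 UMIs in either library, while the 7 genes with more stayed within 2-fold. In fibroblasts 8 passed, and Lpl and Abcg1 were 2-fold or more higher, where 5.91% of 13377 genes were, and none was lower, where 2.48% were. Their median was 0.14, beside 0.02. In alveolar macrophages all 10 had 20 UMIs, but with a floor of 3 counts in the 4 control cells the direction of the ratio could be read for only 5. Of these 5, Lpl was higher and Fabp1, Fabp5 and Plin2 were lower by 2-fold or more in the ΔSftpc library, where 2.02% and 46% of 248 genes were. A gene could be read as lower only with at least 3 UMIs in the 4 control cells. Fabp1, Fabp5 and Plin2 entered through those cells, where they were high, so these calls carry no weight. Lpl (-0.02 to 3.80 on the log2 scale) and Fabp5 (-2.72 to 1.11) rest on 3 control UMIs each, and their intervals include 0. Several genes went opposite ways in different cell types, as Lpl did in alveolar fibroblasts and general capillary cells. Those differences were not tested, and how many of all genes go opposite ways was not counted.

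**Figure D5:**
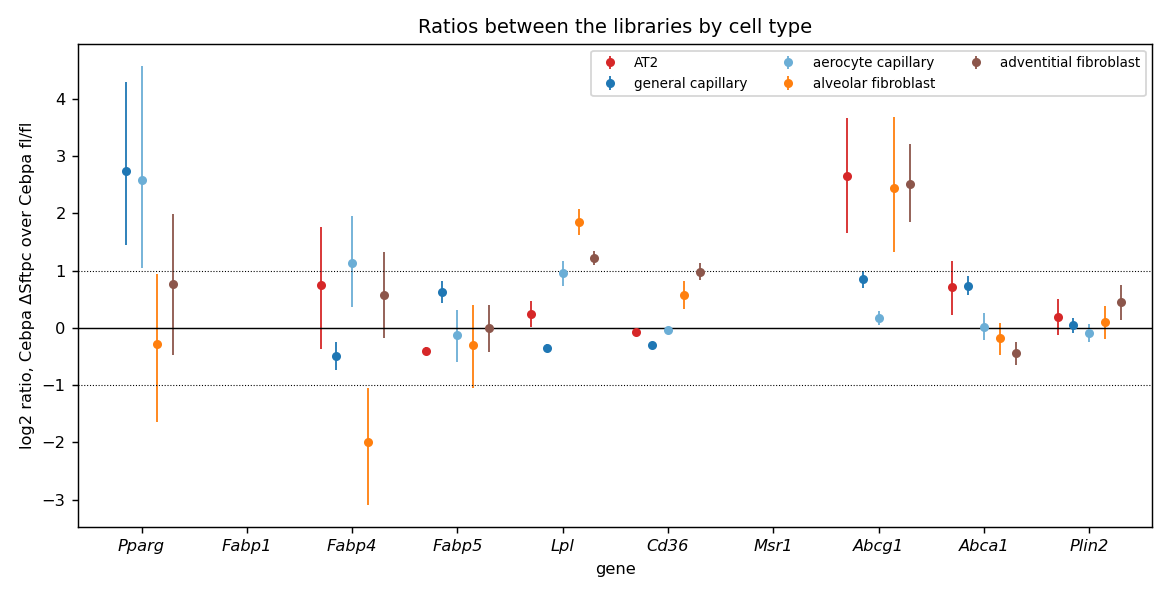
Log2 ratios of Cebpa ΔSftpc over Cebpa fl/fl for the 10 genes in AT2 cells, both capillary types and both fibroblast types, with 95% counting intervals, a line at 0 and dotted lines at 2-fold; genes with too few UMIs in a type, such as Fabp1 and Msr1, have no point. Lpl lies at 1.85 in alveolar fibroblasts and at -0.35 in general capillary cells, and Plin2 lies between -0.09 and 0.44.

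The resident cells were also set against all other gated cells of their own library, and most of these counts lie near the share over all genes. In the control library AT2 cells were 2-fold or more above in 1 of 8 tested genes, Fabp5, by 6.03 on the log2 scale, where 9.07% of all genes were. Capillary cells were above in 3 of 8, Lpl by 1.09, Cd36 by 1.93 and Abcg1 by 2.16, where 10.4% were. Fibroblasts were above in 2 of 8, Pparg by 1.39 and Abca1 by 1.72, where 15.8% were. In the ΔSftpc library AT2 cells were above in 1 of 10 (Fabp5 by 3.71, background 10.2%), capillary cells in 1 (Cd36 by 2.29, background 9.9%) and fibroblasts in 0 (background 14.5%), the other cells there now including 638 alveolar macrophages.

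A further 84 genes of lipid biology were read in 6 lists, which cover PPAR and LXR partners, fatty acid and lipoprotein uptake, lipid droplets and lipolysis, sterol handling, scavenger receptors and fatty acid oxidation. Between the libraries 8 of 65 tested genes were 2-fold or more higher in AT2 cells of Cebpa ΔSftpc mice, 9 of 74 in capillary cells and 5 of 73 in fibroblasts, and 0 were 2-fold or more lower in each. Over all genes 8.42%, 7.16% and 5.91% were higher and 1.18%, 1.87% and 2.48% lower. Fatty acid oxidation had 0 genes past 2-fold in any of these 3 types. In AT2 cells the largest ratios were those of Lipa, the lysosomal acid lipase, which went from 14 to 31 UMIs at a log2 ratio of 3.65 (2.70 to 4.68), Colec12, a scavenger receptor, at 2.67 (1.95 to 3.39), and Lrp1, a lipoprotein receptor, at 2.53 (1.95 to 3.12). Other cells of the ΔSftpc library held far more of them. Lipa and Lrp1 stood at 499 and 489 CPM in alveolar macrophages, and Colec12 at 598 CPM in alveolar fibroblasts. The part of carried RNA in these AT2 ratios was not tested. In capillary cells the genes with the largest ratios were Marco with 3 and 88 UMIs, Olr1 with 0 and 66 UMIs and Cidec with 1 and 39 UMIs. In fibroblasts they were Marco with 0 and 28 UMIs, Cidec with 0 and 21 UMIs and Lipg, endothelial lipase, with 19 and 41 UMIs. Of these, Marco, Olr1 and Cidec reached the 20 UMIs through the ΔSftpc library alone, so they could only be called higher. Lipa in AT2 cells, with 14 control UMIs, also passed only through the ΔSftpc library, where it was high, so its call carries no weight. Marco, Olr1 and the droplet protein Cidec were also the 3 list genes with the largest ratios of alveolar macrophages over other cells of the ΔSftpc library, at 377, 373 and 224 CPM. Of the 78 list genes tested in that comparison, 31 were 2-fold or more higher in alveolar macrophages and 19 lower, beside 1841 and 4610 of 15365 genes. Fatty acid oxidation had 6 of 12 higher and 0 lower, with a median log2 ratio of 1.0 beside -0.34 over all genes. That median was the highest of the 6 lists. The next was 0.40, for lipid droplets and lipolysis, and the lowest -0.76, for scavenger receptors, with 3 of 9 higher and 4 lower. In the list of PPAR and LXR partners, Rxra stood at 120 CPM and Nr1h3 at 51.5 CPM in alveolar macrophages. Cebpa, which the Cre is not directed at in these cells, stood at 193 CPM. These genes were picked and not taken by a rule. Of the 14 genes of this list tested, 5 were 2-fold or more higher in alveolar macrophages and 3 lower, Cebpd among the latter.

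The genes whose pattern over cell types was most like that of each member were found by Pearson correlation of log2(CPM + 10) over 11 types of the control library and 17 of the ΔSftpc library, averaged. The points share library, depth and carried RNA, and no p is given. No leukocyte type of the control library had the 50 cells needed, so its 11 types hold no macrophages or monocytes. For Cd36 they were Slco2a1 (0.92), Adgrf5 (0.91) and Kcnq1 (0.87). For Fabp5 they were Dram1 (0.87), a marker used for the AT2 gate, Chil1 (0.84) and Lyz1 (0.84). For Abca1 they were Tgfbr2 (0.89), Slco2b1 (0.80) and Pdpn (0.79), a marker used for the AT1 and lymphatic gates. For Abcg1 they were Usf2 (0.84), Pip5k1c (0.82) and Fam122b (0.81). For Fabp4 they were Vps13d (0.83), Bmx (0.80) and Ch25h (0.78). For Pparg they included Cln3 (0.76) and Cyp4f16 (0.75). For Plin2 they were Emc1 (0.76), Ubl3 (0.74) and Cyp4v3 (0.73). For Lpl they were Ctnnbip1 (0.74), Lonrf3 (0.74) and Tnfsf13 (0.70). Fabp1 and Msr1 had too few UMIs in the control library for this measure, 6 and 17 UMIs.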

How the data were processed

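Lung cells of 2 libraries were counted by droplet 3′ single-cell RNA sequencing. The authors deposited raw UMI counts, which Cell Ranger produced from reads on the mm10 genome (version 6.1.1 per the labels). The header of the matrix names version 5.0.0 of the same tool. Cells were kept from 200 genes upwards and up to 20% mitochondrial UMIs. No doublet caller was run. Doublets were left in, and an alternative left out the deepest cells. Cell types were gated on raw counts of marker genes, with 22 marker lists and 18 gates whose thresholds were set after the data were seen: an alveolar macrophage needed 4 of 11 markers and 0.5% of its UMIs, an AT2 cell 5 of 10 markers and 5%. For each type and library, the cells were summed and scaled to 1000000 UMIs. Ratios have exact conditional binomial intervals, levels exact Poisson intervals and shares Clopper-Pearson intervals, all at 95%. Counts of 3 or fewer were set against a floor of 3. A gene was compared between libraries with 20 UMIs or more over both. Shares of cells were also taken after thinning each cell to 1000 UMIs. Replicates were absent, so no test was run and size alone, 2-fold, made a call. The ratio script was tested on simulated data. All 10 genes, and by fixed rules the 3 list genes with the largest ratios per type and the 3 genes most like each member, were named, except 1 that is not reported here. The genes, lists and gates were chosen with earlier results of these data known. Gene positions are those of the annotation of GRCm38. Python 3.11.15, numpy 2.4.6, pandas 2.3.3, scipy 1.17.1 and matplotlib 3.10.9 were used.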

Additional observations from a re-analysis of the deposited data

Results flagged for a closer look

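In AT2 cells, both capillary types and both fibroblast types, 5 of the 10 genes had opposite ratios. The ratio of Cebpa ΔSftpc over Cebpa fl/fl had its interval above 0 in 1 cell type and below 0 in another. The difference between the types was not tested. How many of all genes do the same was not counted, and intervals are narrow where UMIs are many. The count is therefore not read as a trait of this set. Fabp4 had a log2 ratio of 1.14 in aerocytes and of -1.99 in alveolar fibroblasts, and in aerocytes 41.8% of the 46 UMIs would come with alveolar macrophage RNA at its ratio to Chil3. Fabp5 had 0.63 in general capillary cells and -0.40 in AT2 cells. Lpl had 1.85 in alveolar fibroblasts and -0.35 in general capillary cells. Cd36 had 0.98 in adventitial fibroblasts and -0.30 in general capillary cells, but capillary RNA at its ratio to Cldn5 would bring 98.8% and 103% of the Cd36 of all fibroblasts, and their ratio was -0.14 in cells of 3000 UMIs or more. Abca1 had 0.74 in general capillary cells and -0.44 in adventitial fibroblasts. Each ratio rests on 1 library per genotype, and the values of Lpl and Abca1 come from 268 UMIs or more in every group named.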

How the results depend on the processing

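No paired analysis was possible because each genotype has 1 library, and for the same reason no library could be left out. The Lpl ratio of fibroblasts stayed 2-fold or more in 13 of 13 alternatives (1.11 to 1.85 on the log2 scale), that of Abcg1 in fibroblasts in 13 of 13 (1.32 to 4.33) and in AT2 cells in the 8 that compared it (2.04 to 4.28), and that of Pparg in capillary cells in the 11 that compared it (1.80 to 3.94). Abcg1 in AT2 cells had too few UMIs to be compared in 3 more, with free RNA subtracted, with thinning and without cells holding Cldn5. In the first of these the subtraction itself left too few. It took 0.989% of the library profile from AT2 cells of the control library and 8.24% from those of the ΔSftpc library. The 8 thus do not include the setting that subtracts free RNA. The setting with no filter on low counts is among the 13, the 8 and the 11. It leaves the ratio of a gene already compared unchanged, so it could not fail. Pparg in capillary cells had too few UMIs in 1 more, with thinning. With 10 control UMIs it passed the filter only through the ΔSftpc library, where it was high, so its 11 settings carry no weight. The cause of the following shifts was not tested. In AT2 cells 3 genes were higher with a mean over cells (median log2 ratio 0.82), where 18.5% of all genes were. With no filter on low counts 2 were higher (median 0.48), where 14.5% of all genes were. Without cells holding Chil3, Marco or Fabp1, 2 were higher, where 11.05% of all genes were. The main comparison had 1 higher, where 8.42% of all genes were. With free RNA subtracted 0 were higher, where 5.45% of all genes were, and the median turned to -0.071 and Lpl to -0.053. Thinning left 0, where 11.7% of all genes were higher. Without cells holding Cldn5, 0 were higher with a median of 0.017, where 8.17% of all genes were. In capillary cells the Fabp4 ratio turned to 0.37 with a mean over cells, 0.64 with thinning and 1.14 in aerocytes alone, where Fabp5 turned to -0.13, Lpl to 0.95 and the median was 0.10. With free RNA subtracted 1 gene was higher and 1 lower (median 0.14), where 4.82% and 2.36% of all genes were. In each of 3 settings 1 was higher: with thinning, in general capillary cells alone and without cells holding the 3 macrophage genes (median 0.20). Over all genes 6.1%, 6.75% and 6.48% were higher there, in the same order. In fibroblasts the median was 0.92 with a mean over cells and Fabp4 turned to 0.94. Thinning gave 4 higher, where 9.07% of all genes were, a median of 1.17 and Fabp4 at 1.17. With no filter 4 were higher, where 9.26% of all genes were, and in adventitial fibroblasts alone the median was 0.67 with Fabp4 at 0.58. Fabp4 was the 1 gene lower with cells of 3000 UMIs or more (where Cd36 turned to -0.14), 1 further marker, free RNA subtracted, alveolar fibroblasts alone, and no Cldn5 cells. In those settings 2.46% to 3.18% of all genes were lower. In alveolar macrophages scaling by the median ratio gave 2 higher and 1 lower, where 19.8% and 21.4% of all genes were. A stricter cell filter left Plin2 alone, with 0 higher, 1 lower and a median of -2.87. There 2.08% of 48 genes were higher and 50% lower. Alternatives that leave out or thin shallow cells could not be fitted there, since all 4 control cells had under 1000 UMIs. The settings that leave out cells by Chil3, Marco, Fabp1 or Cldn5 were chosen after seeing the data. Of the counts and medians, 96 kept their value within limits, 32 moved and 1 reversed, and of single-gene ratios 230, 68 and 10. The 230 include the setting with no filter on low counts, which could not change a single-gene ratio. Low UMI counts limit Pparg, Fabp1 and Msr1 outside leukocytes.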
